A study of Rattus norvegicus with 18 samples.

Results

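Metabotropic glutamate receptors are G protein coupled receptors that sense glutamate and tune transmission at excitatory synapses. The 6 genes described here, Grm2, Grm3, Grm4, Grm5, Grm7 and Grm8, were taken by symbol from the 38445 genes counted in every library, and all 6 were among the 17853 genes tested, those above 0.5 CPM (each gene's share of the library's counts, scaled by TMM) in at least 1 rat. RNA-Seq was performed on the dorsal hippocampus of 18 adult male rats of strain Sprague Dawley/WT, bought at 75 to 85 days of age, with 6 rats in each of 3 groups. Control rats were fed a Lieber-DeCarli liquid diet without ethanol, Chronic Ethanol rats received the same diet with 9% (v/v) ethanol for 16 days and were killed without withdrawal (0 h), and Withdrawal rats received it for 15 days and were killed 24 h after it was removed. Ethanol was raised to this level over 7 days. The groups address whether transcript levels differ during chronic ethanol intake and during withdrawal from it.

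The family has 3 groups. Group I, to which mGlu5 (encoded by Grm5) belongs, couples mainly to Gq and phospholipase C and sits mostly on the postsynaptic side. Group II, mGlu2 and mGlu3 (Grm2 and Grm3), and group III, mGlu4, mGlu7 and mGlu8 (Grm4, Grm7 and Grm8) with mGlu6 (Grm6) of the retina, couple to Gi/o and lower cAMP, and many of them restrain transmitter release from presynaptic terminals. In the hippocampus mGlu5 is known for its part in synaptic plasticity of pyramidal cells, mGlu3 is also made by astrocytes, and mGlu7 and mGlu8 are found at terminals onto interneurons. Grm6 is no member of the set and is given for comparison.

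Each rat was 1 library of 30873228 to 42679748 counts assigned to genes, with a median of 36302755. Some libraries stood apart in markers of neighbouring regions and cell types. The summed level of 6 thalamus markers (Tcf7l2, Slc17a6, Prkcd, Lef1, Zic1 and Rora), all above the filter, was 266 to 787 CPM in control, 216 to 1475 in ethanol and 208 to 601 in withdrawal rats, and was highest in ethanol rat 1. The CA1 pyramidal cell markers Wfs1 and Mpped1 together were at 370 to 525 CPM in control rats, but at 195 CPM in ethanol rat 1 and 190 CPM in withdrawal rat 5, while Fibcd1, the other CA1 marker listed, did not pass the filter. The sum of 5 choroid plexus markers varied most, from 1075 to 2252 CPM in control, 1426 to 5294 in ethanol and 26.9 to 5311 in withdrawal rats, with withdrawal rats 4 and 5 at 26.9 and 27.7, apart from all others. No pooled correlation is therefore printed for it, but its relations are counted among the 72 relations of the 6 genes to 12 marker lists. Results were also computed without ethanol rat 1 and withdrawal rat 5. The index codes in the library names put all control rats in 1 set, all ethanol rats with withdrawal rats 1 and 2 in another, and the other withdrawal rats in the last, so control and index set cannot be told apart.

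To compare genes with each other, CPM was divided by the exon length in kb. This annotated length was 12.17 kb for Grm3, 9.02 for Grm7, 6.99 for Grm5, 5.11 for Grm8, 5.05 for Grm2 and 2.96 for Grm4. The order of the genes depends on it. In control rats Grm5 had the highest level of the 6 at 23.1 ± 0.90 CPM per kb (SD, n = 6), followed by Grm3 at 17.3 ± 2.07. Grm2 (8.49 ± 0.86 CPM per kb), Grm7 (7.42 ± 0.30) and Grm4 (7.05 ± 1.75) came next, and the control ranges of Grm2 and Grm7, and of Grm7 and Grm4, overlapped, so that these neighbours were not separated by their spread. Grm8 was the lowest member at 1.60 ± 0.53 CPM per kb. Grm6 lay below Grm8 at 0.56 ± 0.083 CPM per kb. Over all 18 rats Grm5 was above Grm3 per kb in 14. Before division by length, the control mean of Grm3 (210 CPM) was above that of Grm5 (161), and that of Grm7 (67.0) above that of Grm4 (20.9).

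**Figure D1:**
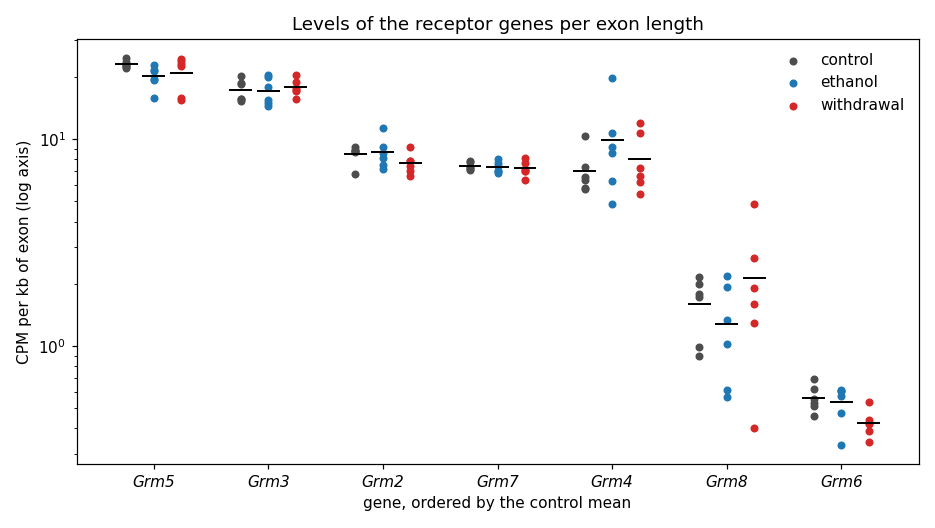
CPM per kb of exon, on a log axis, of the 6 genes and of Grm6 in each of the 18 rats, with points coloured by group and a line at each group mean. Grm5 and Grm3 are highest, Grm2, Grm7 and Grm4 lie close together, and Grm8 and Grm6 are lowest.

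None of the 6 genes was DE in any comparison. With limma-voom and 3 surrogate variables, 0 of 6 were called at a q-value (Benjamini-Hochberg over all genes tested) under 0.1 in ethanol vs. control, where 0.493% of all genes tested were called, 0 of 6 in withdrawal vs. control, where 5.41% were called, and 0 of 6 in withdrawal vs. ethanol, where 2.72% were called. A test for any difference among the 3 groups called 0 of 6, against 5.6% of all genes. Of the 18 limma-voom tests, 0 had an unadjusted p under 0.05, and q-values ran from 0.321 to 0.997. Among all 17853 genes tested, 2225, 3518 and 2985 had such a p in ethanol vs. control, withdrawal vs. control and withdrawal vs. ethanol. The edgeR quasi-likelihood test and DESeq2 also called 0 of the 6 genes in each comparison, and with both of them 0 had an unadjusted p under 0.05. In ethanol vs. control, withdrawal vs. control and withdrawal vs. ethanol, edgeR called 0.347%, 0.185% and 3.82% of its 17853 genes, and DESeq2 2.42%, 2.44% and 8.1% of the 17813 to which it gave an unadjusted p. In the same order, edgeR gave 2160, 2306 and 3468 of these genes an unadjusted p under 0.05, and DESeq2 2258, 2386 and 3581. The number of genes called by limma-voom, 88, 965 and 486 in the same order, depended on single rats and on the surrogate variables. It was 0 in ethanol vs. control without control rat 4, 23 in withdrawal vs. control without withdrawal rat 6 and 41 without surrogate variables, and 0 in withdrawal vs. ethanol without ethanol rat 2, ethanol rat 3 or withdrawal rat 6. In the limma-voom fit with 3 surrogate variables the largest log2 fold change was -0.23, and in 9 of the 18 tests both bounds of the 95% interval lay within 1.2-fold of no change, among them all 3 tests of Grm7 and of Grm3. The bounds over all tests of that fit ran from 0.679-fold to 1.24-fold. Other fits gave larger values, none of them called, up to 0.74 for Grm8 in withdrawal vs. ethanol, 0.49 for Grm4 in ethanol vs. control and -0.49 for Grm8 in ethanol vs. control. The surrogate variables followed the marker lists over the 18 rats after centring on group means, the first with the interneuron markers (r = -0.91) and the second with the thalamus (r = 0.95), general neuron (r = -0.93) and CA1 markers (r = -0.84), so that the fitted fold changes are values after adjustment for variables that carry regional and cell type markers. In no comparison were the CPM of the groups without overlap, as they were for 1.32%, 1.06% and 1.22% of all genes in ethanol vs. control, withdrawal vs. control and withdrawal vs. ethanol. In bulk tissue, fewer cells of a type and less RNA per cell cannot be told apart.

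**Figure D2:**
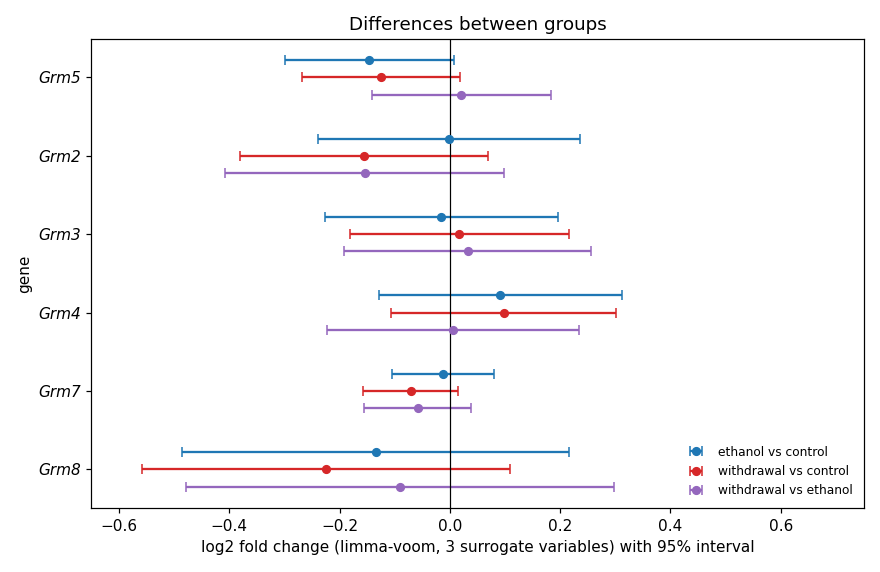
Fitted log2 fold change of each of the 6 genes with its 95% interval from limma-voom with 3 surrogate variables, in ethanol vs. control, withdrawal vs. control and withdrawal vs. ethanol. All 18 intervals include 0, and those of Grm7 are the narrowest and those of Grm8 the widest.

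Grm5 (chr1:151207846-151785038, plus strand, Rnor_6.0) encodes mGlu5, a group I receptor. Its CPM ran from 155 to 172 (median 159) in control, from 111 to 160 (median 144) in ethanol and from 108 to 170 (median 160) in withdrawal rats. Of the ethanol rats 5 of 6 were below every control rat, whereas of the withdrawal rats 4 lay between 158 and 170 CPM and rats 1 and 5 at 108 and 111 CPM. The fitted log2 fold change of ethanol vs. control was -0.15 ± 0.073 (SE, with a 95% interval of -0.30 to 0.0070, q = 0.429). An exact two-sided permutation test of log2 CPM, 6 against 6, gave p = 0.0108 for this comparison, not adjusted for the 18 tests made on the members and the only one of them under 0.05. The smallest p that this exact test can give is 0.0022. In withdrawal vs. control the log2 fold change was -0.13 ± 0.068 (q = 0.321), and -0.048 (q = 0.669) without withdrawal rat 1, and in withdrawal vs. ethanol 0.021 ± 0.077 (q = 0.923). Without ethanol rat 1 and withdrawal rat 5 the fitted ethanol vs. control value was again -0.15 (q = 0.384). Over all 14 other fits it ran from -0.209 to -0.087, the latter in only the 2 groups compared (q = 0.554). Without surrogate variables it was -0.208 (q = 0.498).

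Grm5 varied among rats together with markers of CA1 pyramidal cells. After centring on group means, its log2 CPM followed the CA1 markers with Pearson's r = 0.83 (Spearman's rho = 0.80, permutation q = 0.0156 over 72 relations, n = 18), and r was 0.69 without ethanol rat 1 and withdrawal rat 5, which stood apart from the other rats in these markers. It also followed general neuron markers (r = 0.80, rho = 0.82, permutation q = 0.00518; 0.75 without the 2 rats farthest from the median of the markers) and ran against the thalamus markers (r = -0.63, rho = -0.62, permutation q = 0.0230 for r and 0.0577 for rho; -0.53 without the 2 farthest rats). With the CA3 pyramidal cell markers, r was -0.28 (rho = -0.075, permutation q = 0.751, n = 18), and 0.12 without the 2 farthest rats. The part of regional content in the Grm5 values was not tested.

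The group II genes showed no difference that passed the test. Grm2 (chr8:115344999-115358628, minus strand), which encodes an autoreceptor of glutamatergic terminals, had 34.3 to 46.3 CPM (median 44.3) in control, 36.3 to 57.2 (median 42.0) in ethanol and 33.6 to 46.1 (median 38.5) in withdrawal rats. Only 1 withdrawal rat was below every control rat, and control rat 6 was itself low at 34.3 CPM. The log2 fold changes of Grm2 were -0.0015 ± 0.11 in ethanol vs. control (q = 0.997), -0.16 ± 0.11 in withdrawal vs. control (95% interval -0.38 to 0.069; q = 0.439) and -0.15 ± 0.12 in withdrawal vs. ethanol (q = 0.546). With 1 rat left out, the last 2 ran from -0.23 to -0.12 and from -0.22 to -0.085. The 15 other fits of withdrawal vs. ethanol ran from -0.18 to -0.053.

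Grm3 (chr4:21316761-21567561, plus strand), the group II receptor of neurons and astrocytes, had 185 to 246 CPM (median 207) in control, 176 to 249 (median 202) in ethanol and 189.7 to 248 (median 213) in withdrawal rats. The groups covered nearly the same range. Its log2 fold changes were -0.015 ± 0.10 in ethanol vs. control, 0.017 ± 0.094 in withdrawal vs. control and 0.032 ± 0.11 in withdrawal vs. ethanol, with q-values of 0.970, 0.945 and 0.914. For each of Grm2 and Grm3, 0 of 12 relations to marker lists had a permutation q under 0.05.

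Group III held both the steadiest and the most variable of the 6 genes. Grm7 (chr4:142452616-143368460, plus strand) encodes mGlu7, a receptor of the active zone with low affinity for glutamate. It had 63.9 to 70.6 CPM (median 66.2) in control, 62.2 to 72.3 (median 65.5) in ethanol and 57.5 to 73.5 (median 64.2) in withdrawal rats, and the highest of the 18 rats was 1.28-fold above the lowest. Its within-group SD of log2 CPM was 0.092, smaller than in all but 18.2% of the genes tested, whose median was 0.18. The log2 fold changes were -0.012 ± 0.044 in ethanol vs. control (q = 0.939), -0.071 ± 0.041 in withdrawal vs. control (95% interval -0.16 to 0.015; q = 0.351) and -0.058 ± 0.046 in withdrawal vs. ethanol (q = 0.551), so that a change of 1.2-fold lay outside all 3 intervals. With 1 rat left out, the values ran from -0.11 to -0.041 in withdrawal vs. control and from -0.090 to -0.019 in withdrawal vs. ethanol.

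Grm4 (chr20:6745682-6791521, minus strand), which encodes a presynaptic receptor, had 17.0 to 30.9 CPM (median 19.2) in control, 14.3 to 58.7 (median 26.3) in ethanol and 16.1 to 35.4 (median 20.7) in withdrawal rats. The highest value was that of ethanol rat 1, and the highest was 4.09-fold above the lowest of the 18. The fitted log2 fold changes were 0.091 ± 0.10, 0.097 ± 0.097 and 0.0059 ± 0.11 in ethanol vs. control, withdrawal vs. control and withdrawal vs. ethanol, with q-values of 0.771, 0.612 and 0.987. Fits without 1 rat ran from 0.041 to 0.13 in ethanol vs. control and from 0.029 to 0.20 in withdrawal vs. control. The 14 other fits of the latter ran from 0.0039 to 0.23. Without surrogate variables the ethanol vs. control value was 0.37 (q = 0.638) and that of withdrawal vs. ethanol was -0.23 (q = 0.671), and in 17 of 33 other fits the latter had the sign opposite to that with 3 surrogate variables, so that no direction can be given for it. Grm4 followed the thalamus markers (r = 0.88, rho = 0.77, permutation q = 0.00168, n = 18; r = 0.82 without ethanol rats 1 and 4, the 2 farthest) and ran against the CA1 markers (r = -0.87, rho = -0.83, permutation q = 0.000720; -0.80 without the 2 farthest) and the general neuron markers (r = -0.85, rho = -0.80, permutation q = 0.00360; -0.81 without the 2 farthest). Among all genes tested, the 2 most like Grm4 over the 18 rats were Sema4g (r = 0.97) and Slc17a6 (r = 0.97), the latter encoding the vesicular glutamate transporter VGLUT2 and itself one of the thalamus markers.

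Grm8 (chr4:54474344-55409526, minus strand), encoding mGlu8, was the lowest and the most variable member, with 85 to 929 counts per library. Its CPM ran from 4.59 to 11.1 (median 8.99) in control, from 2.89 to 11.2 (median 6.02) in ethanol and from 2.06 to 24.97 (median 8.94) in withdrawal rats. Both extremes were withdrawal rats, rat 6 and rat 5, a 12.1-fold range, and 97.2% of the genes tested had a smaller within-group SD than its 0.89 on the log2 scale. The fitted log2 fold change was -0.13 ± 0.17 in ethanol vs. control (q = 0.791), -0.23 ± 0.16 in withdrawal vs. control (95% interval -0.56 to 0.11; q = 0.453) and -0.090 ± 0.18 in withdrawal vs. ethanol (q = 0.847). Leaving out 1 rat brought the first of these to -0.016 (without ethanol rat 5) and the second to -0.045 (without withdrawal rat 6). Without surrogate variables the first was -0.44 (q = 0.785), and the sign turned in the latter 2, to 0.070 (q = 0.970) and 0.51 (q = 0.605), so that no direction can be given.

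Grm8 followed the GABA interneuron markers (Gad1, Gad2, Slc32a1, Sst, Pvalb and Vip), whose summed level was 414 to 584 CPM in control, 382 to 617 in ethanol and 455 to 831 in withdrawal rats. The relation had r = 0.90, rho = 0.91 and a permutation q of 0.00168 (n = 18), and r was 0.88 without ethanol rat 6 and withdrawal rat 5, the 2 farthest. Withdrawal rat 5, with the most Grm8, also had the highest interneuron sum. Grm7 had r = 0.71 with the same markers (rho = 0.63, permutation q = 0.0627; 0.58 without those 2 rats). The other relations with a permutation q between 0.05 and 0.1 for r were those of Grm4 (r = 0.64, rho = 0.67, q = 0.0587) and Grm5 (r = -0.68, rho = -0.65, q = 0.0627) with the endothelial markers and of Grm3 with the oligodendrocyte markers (r = 0.66, rho = 0.59, q = 0.0906). Without the 2 farthest rats these r were 0.65, -0.59 and 0.58. The part of cell type content in these values was not tested. The genes most like Grm8 were Grik3 (r = 0.98), a kainate receptor subunit, and Gucy1b1 (r = 0.97), a soluble guanylate cyclase subunit.

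**Figure D3:**
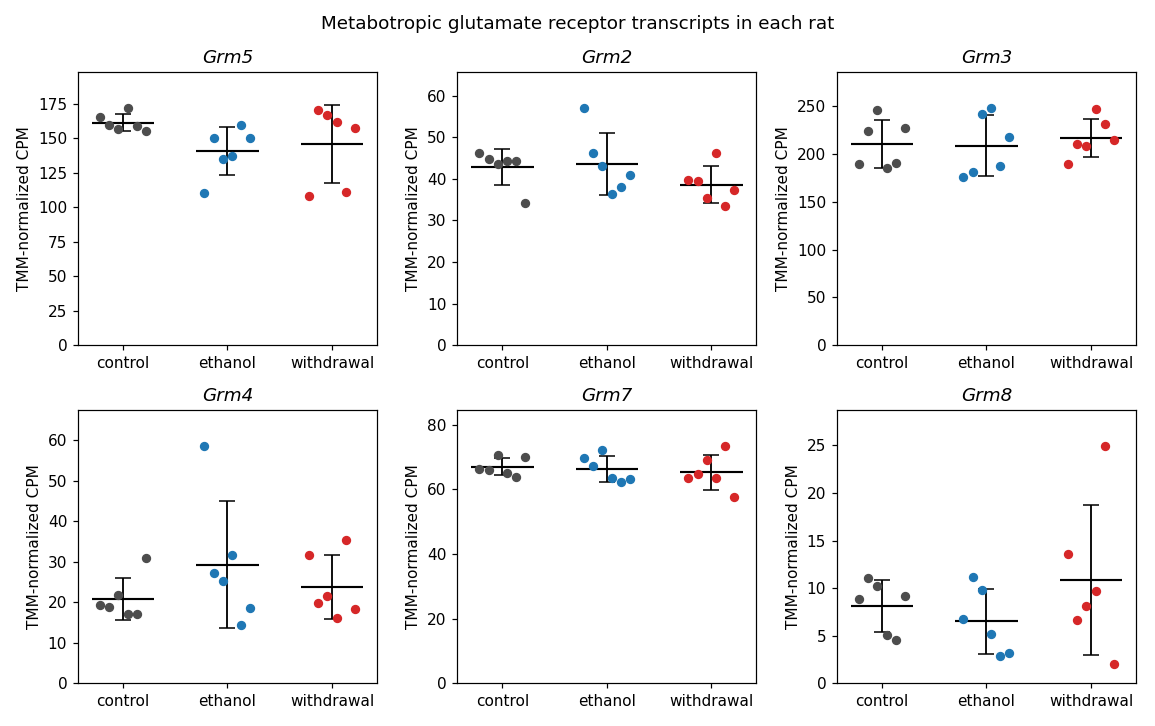
TMM-normalized CPM of the 6 genes in each rat (points), by group, with the group mean (line) and SD (bars), n = 6 per group and each axis from 0. The groups overlap for every gene, withdrawal rats 1 and 5 are low in Grm5, ethanol rat 1 is high in Grm4 and withdrawal rat 5 is high in Grm8.

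**Figure D4:**
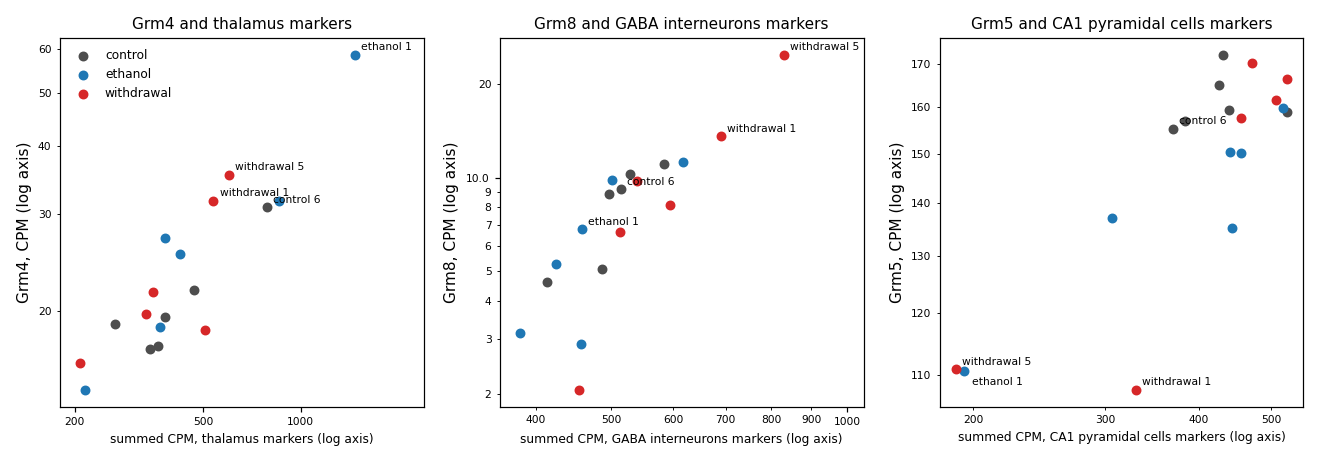
CPM of Grm4, Grm8 and Grm5 against the summed CPM of thalamus, GABA interneuron and CA1 pyramidal cell markers in the 18 rats, coloured by group, on log axes. Grm4 is highest in ethanol rat 1, which has the most thalamus marker RNA, Grm8 in withdrawal rat 5, which has the most interneuron marker RNA, and Grm5 is low in ethanol rat 1 and withdrawal rat 5, which have the least CA1 marker RNA, but lowest in withdrawal rat 1, whose CA1 sum of 330 CPM is above that of ethanol rat 4 at 306.

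The 6 genes were not one block. Of the 15 pairs, 2 had a permutation q under 0.05 for r of group-centred log2 CPM over the 18 rats: Grm4 ran against Grm5 (r = -0.80, rho = -0.78, q = 0.00375; -0.68 without the 2 farthest rats), and Grm7 and Grm8, both of group III, moved together (r = 0.81, rho = 0.78, q = 0.00945; 0.62 without the 2 farthest rats). Grm4, also of group III, passed with both by rank only, with rho = 0.69 for Grm7 (permutation q = 0.0217 for rho and 0.0762 for r = 0.59) and rho = 0.71 for Grm8 (permutation q = 0.0212 for rho and 0.0762 for r = 0.57). Without the 2 farthest rats these r were 0.46 and 0.56. For the others, genes among the most similar by the same measure were Cnnm4 (0.83) and Bicdl1 (0.78) for Grm2, Cpox (0.82) and Septin7 (0.82) for Grm3, Cdh9 (0.97) for Grm5, and C10h17orf100 (0.92) and C8h15orf61 (0.91) for Grm7.

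Because Grm7 and Grm8 moved together, the 250 bases before their annotated starts are shown, in RefSeq's sequence of build GRCr8, with matches to the GC box GGGCGG on either strand in capitals, whereas the counts were made on Rnor_6.0. RefSeq's promoter table held 3 of the 6 genes, Grm5, Grm7 and Grm8. The Grm7 window is chr4:145286476-145286725 on the plus strand, and the Grm8 window is chr4:57687507-57687756 on the minus strand.
Grm7: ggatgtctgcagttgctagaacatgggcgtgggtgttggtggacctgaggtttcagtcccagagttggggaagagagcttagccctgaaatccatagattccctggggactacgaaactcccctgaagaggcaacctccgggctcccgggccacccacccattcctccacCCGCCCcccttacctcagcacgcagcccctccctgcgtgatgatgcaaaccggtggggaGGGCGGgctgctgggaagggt
Grm8: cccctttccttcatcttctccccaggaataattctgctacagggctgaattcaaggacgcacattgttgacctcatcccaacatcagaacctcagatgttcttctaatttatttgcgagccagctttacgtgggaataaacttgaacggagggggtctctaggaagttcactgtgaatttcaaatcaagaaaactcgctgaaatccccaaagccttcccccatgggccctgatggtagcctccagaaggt

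The 2 windows differ in composition. The Grm7 window is 62.0% G and C and that of Grm8 47.2%, against a median of 51.2% over the 33469 promoters of the table. Grm7 holds 2 matches to the GC box and Grm8 holds 0, and 30.5% of all promoters hold at least 1 in the same window. Neither window holds TGACG, the core letters of the cAMP response element, or TATAAA on either strand, which 18.2% and 12.9% of all promoters hold.

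Grm6 and the signalling partners of the receptors were examined in 7 lists of 44 genes, all of which passed the filter. In ethanol vs. control 0 of 44 were called by limma-voom (6 with an unadjusted p under 0.05), where 0.336% of all genes tested were called as increased and 0.157% as decreased. In withdrawal vs. control 1 was increased and 1 was decreased (8 with p under 0.05), where 2.85% of all genes were called as increased and 2.55% as decreased. In withdrawal vs. ethanol 0 were called (8 with p under 0.05), where 1.23% of all genes were called as increased and 1.49% as decreased. Over all 17853 genes tested, 2225, 3518 and 2985 had p under 0.05 by limma-voom, in the same order of comparisons. The edgeR and DESeq2 fits, which used no surrogate variables, each called 1 of 44 in ethanol vs. control, Itpr2, as decreased, where they called 62 and 431 of all genes. In withdrawal vs. control both called 0 (5 with p under 0.05 in each), where they called 33 and 435 of all genes. In withdrawal vs. ethanol edgeR called 0 (6 with p under 0.05) and DESeq2 called Itpr2 as increased, where they called 682 and 1443 of all genes. Of all genes, edgeR gave 2306 and 3468 a p under 0.05 in withdrawal vs. control and withdrawal vs. ethanol, and DESeq2 2386 and 3581. The median log2 fold change of the 44 genes in withdrawal vs. control was -0.0082 with limma-voom, and that of all genes tested was 0.00030. The median of the 6 receptors was -0.098.

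The decreased gene was Grm6 (chr10:36345503-36363416, plus strand), at 121 to 260 counts per library. It had 4.73 to 7.14 CPM (median 5.58) in control, 3.43 to 6.32 (median 6.05) in ethanol and 3.55 to 5.50 (median 4.34) in withdrawal rats. It fell by 0.37 on the log2 scale in withdrawal vs. control (SE 0.11, q = 0.0925), a call kept in 5 of 14 other fits and 4 of 18 fits without 1 rat. It was kept without control rat 1, ethanol rat 1, ethanol rat 2 or withdrawal rat 2 and lost without any other rat, with q up to 0.258 (without withdrawal rat 6). Dentate granule cell markers, another cell type of the tissue, summed to 197 to 235 CPM in control and 97.4 to 212 in withdrawal rats. Of their 4 genes, 1 was called in this comparison, as decreased. In the same comparison 2 of 3 endothelial markers were called as increased, as were 1 of 6 astrocyte markers and 1 of 2 oligodendrocyte precursor markers, while 2 astrocyte markers were called as decreased. The sums were 149.8 to 173 CPM in control and 159 to 227 in withdrawal rats for endothelial, 2867 to 3245 and 2384 to 3951 for astrocyte, and 116 to 137 and 111 to 153 for precursor markers. Their part in the values of Grm6 and of Shank1, described next, was not tested.

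Among the 12 scaffolds and binding partners, Shank1 (chr1:100297137-100344377, plus strand), a postsynaptic scaffold tied to group I receptors through Homer proteins, rose in withdrawal, with 458 to 564 CPM in control and 456 to 673 CPM during withdrawal. Its log2 fold change against control was 0.22 ± 0.057 (q = 0.0577). That call was kept in 7 of 14 other fits and 11 of 18 fits without 1 rat, and was lost without control rat 3, 4, 5 or 6 or withdrawal rat 1, 3 or 6 (q from 0.102 to 0.127). The Homer genes, whose products bind mGlu5, were not called in withdrawal vs. control by limma-voom with 3 surrogate variables, with log2 fold changes of 0.20 for Homer1 (q = 0.226), -0.15 for Homer2 (q = 0.250) and -0.19 for Homer3 (q = 0.142). Homer1 was called in 2 of 14 other fits and 1 of 18 fits without 1 rat, and Homer3 in 2 of 14 and 3 of 18. Pick1, which binds mGlu7, was at -0.013 (q = 0.872). Elfn1 and Elfn2, adhesion proteins that bind group III receptors across the synapse, were at -0.18 (q = 0.145) and 0.052 (q = 0.486).

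**Figure D5:**
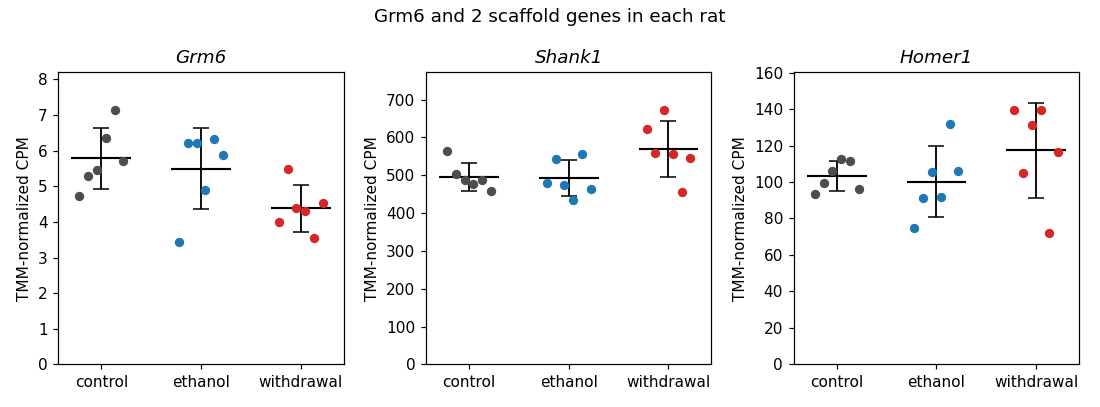
TMM-normalized CPM of Grm6, Shank1 and Homer1 in each rat (points), by group, with the group mean (line) and SD (bars), n = 6 per group and each axis from 0. Withdrawal rats are mostly below control rats in Grm6, and most are above the control mean in Shank1.

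Downstream of the receptors, 0 of 6 G protein alpha subunits were called by limma-voom in any comparison. Gnaq, the Gq subunit that group I uses, had log2 fold changes of -0.16 in ethanol vs. control (q = 0.309), 0.046 in withdrawal vs. control (q = 0.699) and 0.20 in withdrawal vs. ethanol (q = 0.133), the last being called in 3 of 18 fits without 1 rat. Gnao1, a Go subunit, was at 0.047 in ethanol vs. control (q = 0.622) and 0.017 in withdrawal vs. control (q = 0.824). Of 8 genes of phospholipase C, IP3 receptors and DAG lipase, limma-voom with 3 surrogate variables called 0 in a comparison of 2 groups. Itpr2, an IP3 receptor, was called by the test for any difference, and its CPM in ethanol rats (23.9 to 33.6) did not overlap with that in control rats (34.2 to 39.6), with a log2 fold change of -0.27 ± 0.066 (q = 0.108). It was called in this comparison in 7 of 14 other fits, edgeR and DESeq2 among them, and in 3 of 18 fits without 1 rat. Ethanol and control rats did not overlap for 1.32% of all genes. Of the scaffolds and binding partners, Cyth2 also did not overlap. It was higher in ethanol (67.4 to 79.1 CPM) than in control rats (58.1 to 66.6) and was not called by limma-voom. Plcb1 was at -0.11 in ethanol vs. control (q = 0.509). Plcb4 was at -0.17 (q = 0.470) with surrogate variables and at 0.19 without them (q = 0.857), its median was 72.7 CPM in control and 90.5 in ethanol rats, and its highest value was 207 CPM in ethanol rat 1.

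Of 10 genes for desensitisation and RGS proteins, which end G protein signalling, 0 were called by limma-voom with 3 surrogate variables, and Rgs4 had log2 fold changes of 0.29 ± 0.15 in withdrawal vs. control (q = 0.310) and 0.48 ± 0.17 in withdrawal vs. ethanol (q = 0.173). Rgs4 was called in 2 of 14 other fits and 1 of 18 fits without 1 rat in the former, and in 2 of 15 and 2 of 18 in the latter. Of 5 genes that supply ligand 0 were called. In ethanol vs. control, Slc7a11, the cystine-glutamate exchanger that feeds extracellular glutamate to group II receptors, was at -0.19 ± 0.093 (q = 0.417), Folh1, which cleaves the peptide NAAG, at -0.070 (q = 0.690), and Rimklb, which makes NAAG, at -0.0024 (q = 0.990).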

How the data were processed

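Dorsal hippocampi of 18 rats were sequenced, 1 library per rat, with stranded mRNA libraries and paired reads. The deposited values are whole-number counts per gene, which the authors made with STAR 2.5.2a on Rnor_6.0 and featureCounts 1.5.0, per the labels; the counts are not normalized. Strand was used in counting, so opposite-strand genes that overlap Grm2 and Grm3 (1 each) were not counted with them, and no same-strand gene shares exon bases with any member. Gene IDs were paired with symbols through RefSeq's GRCr8 gene table (29322 of 38445 matched).

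Groups came from the treatment labels. Counts were scaled by TMM (edgeR 4.0.16), genes above 0.5 CPM in at least 1 rat were kept (17853), and limma-voom (limma 3.58.1) was fitted to all 18 rats with 3 surrogate variables (sva 3.50.0; log2 CPM, prior count 2). The number of surrogate variables and the cutoff were set here. Contrasts were adjusted by Benjamini-Hochberg over all genes, with q under 0.1 as a call, and fold changes are given with the SE from limma's moderated variance. Single values were also compared by exact two-sided permutation. Marker relations used group-centred log2 CPM and 100000 permutations within groups. Alternatives were 0, 2 and 4 surrogate variables, edgeR, DESeq2 1.42.0, RLE scaling, other filters, only the groups compared, a replicate block, index set, and each rat left out. R 4.3.3 was used, and the scripts were tested on simulated data.

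The members, gene lists and tests were chosen with earlier results of these data known. All 6 receptor genes were named, with the list genes called and a set of partner genes (Homer1, Homer2, Homer3, Pick1, Elfn1, Elfn2, Gnaq, Gnao1, Plcb1, Plcb4, Rgs4, Folh1, Rimklb and Slc7a11), and for each member up to 2 genes of highest r. Some items that these rules would name are not reported here. No 2 libraries of a group agreed within sampling noise, the lowest chi-square per degree of freedom among 45 pairs being 5.74. Grm8 (85 to 929 per library) and Grm6 (121 to 260) had the lowest counts of the receptor genes named.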

Additional observations from a re-analysis of the deposited data

Results flagged for a closer look

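Of 27 groups of 6 rats checked for a rat far from the others (the 6 receptor genes and Grm6, Shank1 and Itpr2), 2 were flagged, and chance flags about 1 in 20, or 1.35 here. Grm2 in control rat 6 was at 34.3 CPM, while the other control rats lay between 43.7 and 46.3. Grm4 in control rat 6 was at 30.9 CPM, while the others lay between 17.0 and 21.8. The summed thalamus markers of this rat were also the highest of the control group, at 787 CPM. The part of that value in the receptor values was not tested.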

How the results depend on the processing

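In the 33 other fits, 18 of which left out 1 rat each, 0 of the 6 receptor genes were called in any comparison, and the lowest q of any of them was 0.175. These fits called very different numbers of genes in all, from 0 to 431 in ethanol vs. control, 0 to 1920 in withdrawal vs. control and 0 to 1797 in withdrawal vs. ethanol, and where few or no genes were called, 0 of 6 says nothing about stability. In withdrawal vs. ethanol 0 genes were called with index set as covariate and in only the 2 groups compared. Of 582 recomputed fold changes 508 kept their sign, 74 turned it and 0 were called. The signs that turned belong to fitted values whose intervals include 0, and the cause was not tested. The values that follow are log2 fold changes.

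In ethanol vs. control, Grm2 (-0.0015 as reported) was 0.014 without surrogate variables, 0.012 with 2 of them, 0.024 by edgeR, 0.022 by DESeq2, 0.0013 above 0.5 CPM in at least 6 rats, 0.013 with the replicate block and no surrogate variables, 0.016 with the block and 3 surrogate variables, and 0.015 with the thalamus score, and moved most, to -0.16, in only the 2 groups compared. Grm3 was 0.0082 with 2 surrogate variables, 0.084 in only the 2 groups compared, and 0.011 and 0.029 without ethanol rat 1 and withdrawal rat 5, with and without surrogate variables. Grm4 was -0.041 in only the 2 groups compared.

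In withdrawal vs. control, Grm8 was 0.070 without surrogate variables, 0.41 by edgeR, 0.41 by DESeq2, 0.16 with the replicate block and no surrogate variables, and 0.079 with the thalamus score.

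In withdrawal vs. ethanol, Grm3 was -0.048 with index set as covariate and -0.0064 without the 2 rats and surrogate variables. Grm4 was -0.23 without surrogate variables, -0.30 by edgeR, -0.30 by DESeq2, -0.052 in only the 2 groups, -0.25 with the replicate block and no surrogate variables, -0.11 with index set and -0.14 without the 2 rats and surrogate variables. Grm5 was -0.043 with index set and -0.035 with the thalamus score. Grm8 was 0.51 without surrogate variables, 0.00057 with 4 of them, 0.73 by edgeR, 0.74 by DESeq2, 0.51 and 0.046 with the replicate block without and with 3 surrogate variables, 0.67 with index set, 0.24 without the 2 rats and surrogate variables, and 0.55 with the thalamus score.

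Leaving out 1 rat turned signs within ranges of -0.094 to 0.072 (Grm2, ethanol vs. control), -0.075 to 0.051 (Grm3, ethanol vs. control), -0.027 to 0.064 (Grm3, withdrawal vs. control), -0.048 to 0.093 (Grm3, withdrawal vs. ethanol), -0.093 to 0.14 (Grm4, withdrawal vs. ethanol), -0.026 to 0.088 (Grm5, withdrawal vs. ethanol) and -0.21 to 0.15 (Grm8, withdrawal vs. ethanol).

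Groups share replicate numbers. Over genes, r of same-numbered rats ran from -0.32 to 0.38 and was above 0.1 in 4 of 18 pairs. These were control and ethanol rats 2, 3 and 5 (0.28, 0.19 and 0.33) and ethanol and withdrawal rats 6 (0.38). The paper states that the rats were pair fed. Differently numbered rats were not compared in this way, so these r cannot tell whether the numbers mark pairs. With the replicate block 0 of 6 receptor genes were called, but without surrogate variables it called only 0, 0 and 14 of all genes in ethanol vs. control, withdrawal vs. control and withdrawal vs. ethanol, and with 3 of them 33, 941 and 1. How far depth limits Grm8 and Grm6, the receptor genes of lowest count, was not tested. The fits without ethanol rat 1 and withdrawal rat 5 and with the mean log2 CPM of the thalamus markers were chosen after seeing the data.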
